A study of Drosophila melanogaster with 2 samples.

Results

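Potassium channel genes were examined for binding of Lim3. This protein of the LIM-homeodomain class is known for its part in the identity of motor neurons. The 10 genes, taken by symbol, were Sh, Shab, Shal, Shaw, slo, eag, sei, Irk1, Irk2 and Irk3, out of 13968 protein-coding genes on the chromosome arms. A peak belonged to a gene when its summit lay in the gene span or within 2 kb of either end. By this rule the 10 genes held 428 of the 142438 peaks ranked from both libraries, and no peak was shared between them.

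Chromatin came from whole Drosophila melanogaster embryos of 8 to 24 h of the strain Lim3-GFP, transgenic flies that make Lim3 fused to eGFP and carry an insertion aimed at Lim3. Both libraries came from these flies, and the sonicated chromatin was precipitated, per the sample descriptions, with an antibody against GFP, while a separate antibody label names Lim3. The age is that of the source label; a separate age label gives a value far beyond embryonic life and was not used. They were 2 biological replicates of 1 group, with no untagged, mutant or second-age group, so no comparison of conditions was possible and no test was run. Whole embryos mix many cell types, so a site bound in fewer cells and a site bound more weakly in each cell cannot be told apart.

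A potassium channel lets potassium ions leave or enter a cell and so sets how a neuron or muscle cell fires and returns to rest. Sh, Shab, Shal and Shaw encode the pore subunits of voltage-gated channels of the Shaker group, and slo that of a channel opened by calcium and voltage. The products of eag and sei belong to the ether-a-go-go group, which also includes the human ERG channel, and Irk1, Irk2 and Irk3 encode inward rectifiers. Lim3 and its relative tup (Islet) are known from earlier work on Drosophila motor neurons to act on the expression of Sh.

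The 2 listed peaks of the 10 genes lay at Irk1 and sei. Here a listed peak is one in the larger thresholded list of both libraries, which held 1500 peaks with an irreproducible discovery rate (IDR) of 0.01 or less. A low IDR means that a peak was ranked both high and alike in repeat rankings. The IDR is given below as its −log10, so that 2 is the limit and 5 the highest value. Signal is the peak caller's own value on a scale that belongs to each list, and rank 1 is the highest signal of a list. The other 8 genes, which held 390 of the ranked peaks, had 0 listed peaks.

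**Figure D1:**
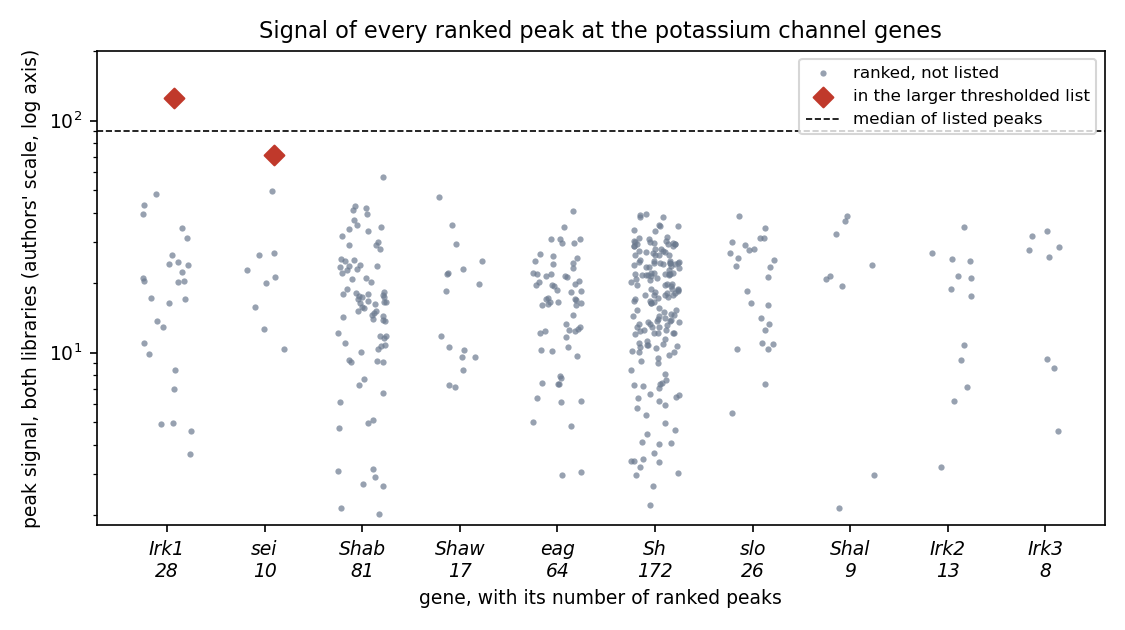
Signal of each of the 428 ranked peaks (y axis, log scale, the peak caller's units, both libraries) by gene (x axis, ordered by best rank, with the number of ranked peaks under each name). Diamonds are the listed peaks of Irk1 (125) and sei (71.4), and the dashed line is the median of listed peaks on the arms, 90.6. Points of the other genes stay at 57.3 or below.

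Irk1, an inward rectifier gene of 17326 bp, carried the strongest peak of the group (3R, 23175501 to 23175830). Its signal was 125, its rank 440 of 142438 and its −log10 IDR 3.22. In replicate 1 the overlapping peak had a signal of 46.3, a rank of 878 and a −log10 IDR of 2.61, and in replicate 2 a signal of 68.8, a rank of 403 and a −log10 IDR of 3.36. This peak thus passed the limit in each library by itself, and it overlapped a peak of all 4 thresholded lists. A weaker Irk1 peak lay beside it (3R, 23174815 to 23175144, signal 48.0, rank 3658) with a −log10 IDR of 1.03, below the limit. That second peak stood at rank 1969 in replicate 1 and 42112 in replicate 2.

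The bases around both Irk1 summits are shown because these were the strongest places of the gene, each in a 200 bp window of the forward strand of release 6 of the genome (dm6). Capitals mark matches to any of 5 words on either strand: TAATTA and TAATTG, both of the kind bound by homeodomain proteins, ACAGTG, the E-box word CAGCTG, and GAGAG, known from sites of a GAGA-binding factor. Words on the reverse strand appear as their complement.
Irk1 listed peak, 3R, 23175566 to 23175765: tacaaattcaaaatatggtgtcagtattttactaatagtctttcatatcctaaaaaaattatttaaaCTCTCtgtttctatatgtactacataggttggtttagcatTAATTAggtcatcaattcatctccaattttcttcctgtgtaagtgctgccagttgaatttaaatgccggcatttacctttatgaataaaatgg
Irk1 second peak, 3R, 23174880 to 23175079: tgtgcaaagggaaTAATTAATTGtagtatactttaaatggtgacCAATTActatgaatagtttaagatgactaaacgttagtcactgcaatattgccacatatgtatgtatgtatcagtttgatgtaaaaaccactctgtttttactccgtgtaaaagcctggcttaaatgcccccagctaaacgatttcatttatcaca
The listed window held TAATTA at 1 place and GAGAG at 1 place. The second window held TAATTA at 1 place and TAATTG at 2, of which 1 shared bases with the TAATTA. GC content was 29.5% in the first window and 33.5% in the second.

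Of all 139295 ranked peaks on the arms, 9.94% had TAATTA in such a window. Of the 1445 listed peaks on the arms, 20.1% had TAATTA, 19.1% TAATTG, 21.9% ACAGTG, 8.79% CAGCTG and 23.9% GAGAG, so TAATTA was not the word with the widest gap between listed and all ranked peaks. Over the 428 windows of the potassium channel genes, TAATTA was in 39 (9.11%), TAATTG in 73 (17.1%), ACAGTG in 34 (7.94%), CAGCTG in 44 (10.3%) and GAGAG in 109 (25.5%). Over all ranked windows the shares were 9.94%, 15.6%, 8.16%, 10.7% and 23.1% in the same order of words. For all 5 words the shares at the channel genes lay within 3 percentage points of those over all ranked peaks. A match is a description of the letters and does not show that a protein sat there.

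The place of the listed Irk1 peak can be given against each annotated start of the gene, which has 7 transcripts. Its summit lay in an intron of 3 of the 7, an intron of 8127 bp in one and of 12465 bp in the others. It was 1793 bp downstream of the start at 23173873 and 2951 bp upstream of the start at 23178617. CG46310, a protein-coding gene that overlaps Irk1, spans the summit as well and shares the first of these starts. All 7 starts of Irk1 had a ranked peak within 500 bp, and the best of those had rank 8609, so the strongest signal of the gene stood away from its promoters. In best rank Irk1 was at place 690 among protein-coding genes, between dlp (rank 439) and CG12099 (rank 441).

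The other inward rectifier genes had the lowest best peaks of the 10 genes, while their median signals were not low. Irk2 had 13 ranked peaks with signals between 3.20 and 34.9 and a median of 18.8, and the best had rank 14395. That peak lay 501 bp upstream of an Irk2 start (3R, 23519781 to 23520110) and had a −log10 IDR of 0.30. Irk3 had 8 ranked peaks with signals between 4.61 and 33.6, the best at rank 16741. Their median of 26.7 was the highest of the 10 genes, against 18.1 over all ranked peaks on the arms. This best peak lay outside Irk3, in coding sequence of the neighbouring gene Grip71. The next strongest, with signals of 31.9 and 28.4, lay outside Irk3 too, in coding sequence of CG10348. The high median of Irk3 thus rests in part on peaks in neighbouring genes, among only 8 peaks. Neither gene had a peak past the limit in either replicate, and the best peaks of both lay below the second peak of Irk1.

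**Figure D2:**
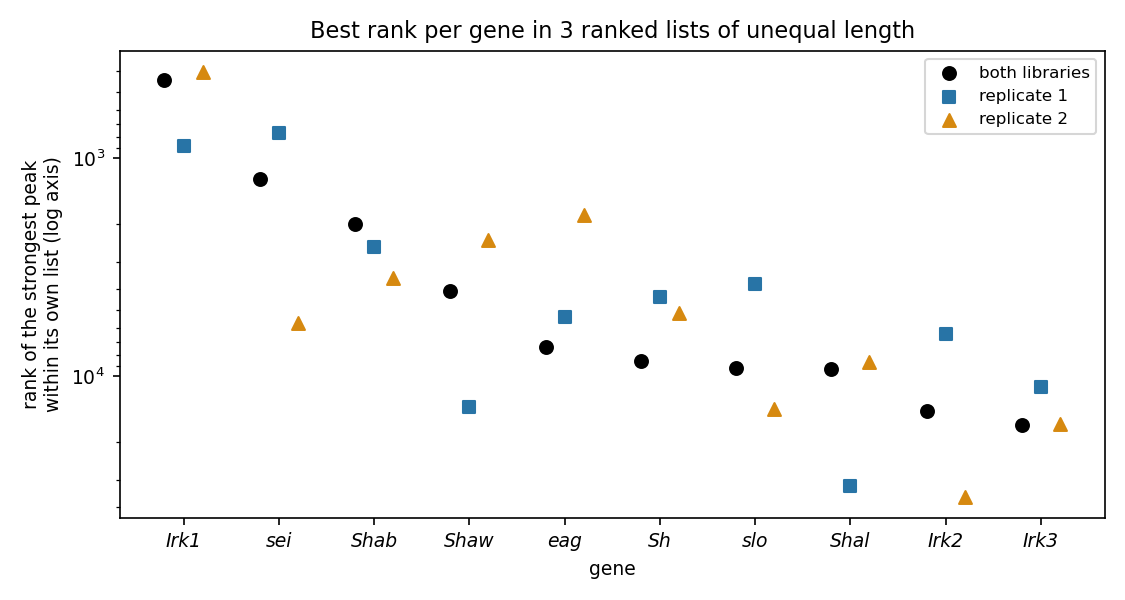
Rank of the strongest peak of each gene within the ranked list of both libraries, of replicate 1 and of replicate 2 (y axis, log scale, strongest at the top; x axis, genes ordered by the list of both libraries). The lists differ in length, so ranks are read within a list. Irk1 is under rank 1000 in all 3 lists and sei in that of replicate 1.

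The gene sei, whose product forms an ERG-type channel and whose mutants seize in heat, had the second listed peak (2R, 24049014 to 24049343). Its signal was 71.4, its rank 1248 and its −log10 IDR 2.57. Replicate 1 had an overlapping peak with a signal of 50.4, a rank of 765 and a −log10 IDR of 2.77. In replicate 2 the signal was 24.7, the rank 7618 and the −log10 IDR 0.41. The peak therefore was in the thresholded list of replicate 1 and in neither that of replicate 2 nor the conservative list.

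At sei the peak stood at a promoter. Its summit lay 24 bp upstream of the start at 24049203, which serves 2 of the 3 transcripts, and in an intron of 1419 bp of the third. A weaker peak (signal 49.8, rank 3173) followed 547 bp downstream of that start in coding sequence, with a −log10 IDR of 0.20. GC content around the sei summit was 30.5%, near the 29.5% at Irk1, and its window held TAATTG and no TAATTA. The median GC content was 45% over the 428 windows, 46.5% over all ranked peaks on the arms and 36.0% over the listed ones. Low GC content thus went with both listed peaks, and its part in the signal was not tested. The neighbouring gene gammaSnap1 shares this best peak under the 2 kb rule.

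The related gene eag, which gave the group its name, had 64 ranked peaks over an extended span of 58.5 kb. Their signals ran between 2.97 and 40.9 with a median of 16.9, and 0 passed the limit. The strongest (X, 14958837 to 14959166, rank 7381) lay in an intron 3525 bp downstream of the single eag start. Each replicate had its own best place, at rank 5372 in replicate 1, 33213 bp downstream of the start, and at rank 1830 in replicate 2, 1317 bp downstream of it. Neither overlapped the best peak of both libraries, so no one place in eag stood out in both libraries.

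Sh, the Shaker gene, carried 172 ranked peaks over 143 kb, or 1.20 per kb, against a median of 1.18 per kb over all protein-coding genes. Of the 172, 0 were listed, which allows a share of up to 1.74%. The share of all ranked peaks, 1.05%, lies below that bound. The bound takes peaks as independent, although 164 of the 428 peaks of the 10 genes overlapped another, so it is a rough description. Signals ran between 2.21 and 39.5 with a median of 17.7, against a median of 18.1 over all ranked peaks on the arms. The strongest (X, 18000166 to 18000495, rank 8544, −log10 IDR 0.44) lay in an intron of 10 of the 17 transcripts, 4730 bp upstream of the nearest Sh start. It had rank 4347 in replicate 1 and 51625 in replicate 2. The highest −log10 IDR of any Sh peak was 1.05. Peaks with this value overlapped each other in coding sequence of CG12672, a gene that overlaps Sh, 1217 and 1018 bp downstream of its start. They had the same partners in the replicates. All 8 annotated Sh starts had a ranked peak within 500 bp, the best at rank 24692. Neither the density of ranked peaks nor the count of 0 past the limit set Sh apart from all genes and peaks. The list of each replicate also had 0 Sh peaks past the limit. By best rank, Sh stood lower than most long genes, at 8544 against a median of 2791 over protein-coding genes of 20 kb or more. Sh had 0 peaks among the top 5000, while 69.6% of those long genes had at least 1. These differences were not tested.

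Shab, a delayed rectifier gene, came closest to the limit among the genes without a listed peak. Its strongest peak (3L, 2917927 to 2918256) had a signal of 57.3, rank 2003 and a −log10 IDR of 1.71. The overlapping peaks had rank 4532 in replicate 1 and 3542 in replicate 2, so both libraries placed this site among their first 5000. The summit lay in an intron of 26126 bp in all 10 Shab transcripts, 21349 bp downstream of the nearest Shab start and 1438 bp upstream of the start of CG9970, a gene within that intron. A second Shab peak with nearly the same −log10 IDR, 1.70, overlapped it and had rank 102885 by signal. Both peaks had the same partners in the replicates, at ranks 4532 and 3542, so their IDR values are not separate evidence of 2 sites. The 81 ranked peaks of Shab had a median signal of 16.5.

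The bases around the strongest Shab summit are shown as the unlisted peak nearest the limit, and those around the strongest peak of Shaw beside it, since they are the strongest peaks of the Shaker group. The windows, strand and capitals are as for Irk1.
Shab strongest peak, 3L, 2917992 to 2918191: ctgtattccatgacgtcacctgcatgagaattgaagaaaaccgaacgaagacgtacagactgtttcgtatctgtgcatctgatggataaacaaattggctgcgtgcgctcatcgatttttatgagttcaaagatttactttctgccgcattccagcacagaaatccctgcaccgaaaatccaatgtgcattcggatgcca
Shaw strongest peak, 2L, 3730440 to 3730639: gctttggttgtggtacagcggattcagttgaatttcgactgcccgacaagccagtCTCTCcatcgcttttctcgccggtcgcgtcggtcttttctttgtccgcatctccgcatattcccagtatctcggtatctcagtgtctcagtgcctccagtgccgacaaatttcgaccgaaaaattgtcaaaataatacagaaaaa
The Shab window held none of the 5 words and had a GC content of 44.0%. The Shaw window held GAGAG at 1 place and had a GC content of 48.0%. TAATTA, present at both Irk1 summits, was thus absent from these letters.

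Shaw, a gene of a channel with little inactivation, had 17 ranked peaks, and its strongest (2L, 3730375 to 3730704, signal 46.8, rank 4058, −log10 IDR 0.77) lay outside the gene. It was 74 bp downstream of the start of CG10019, the next gene, and past the 3′ end of Shaw. Replicate 2 had it at rank 2385 and replicate 1 at rank 13827. Shal, a gene of A-type channels in cell bodies and dendrites, had 9 ranked peaks with signals between 2.13 and 38.8. Its best, at rank 9254 (3L, 19583561 to 19583890), lay in an intron 842 bp downstream of the start. For slo the best of 26 ranked peaks (3R, 24669565 to 24669894, signal 38.8, rank 9222) lay in coding sequence, at rank 4670 in replicate 1 and 65446 in replicate 2.

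**Figure D3:**
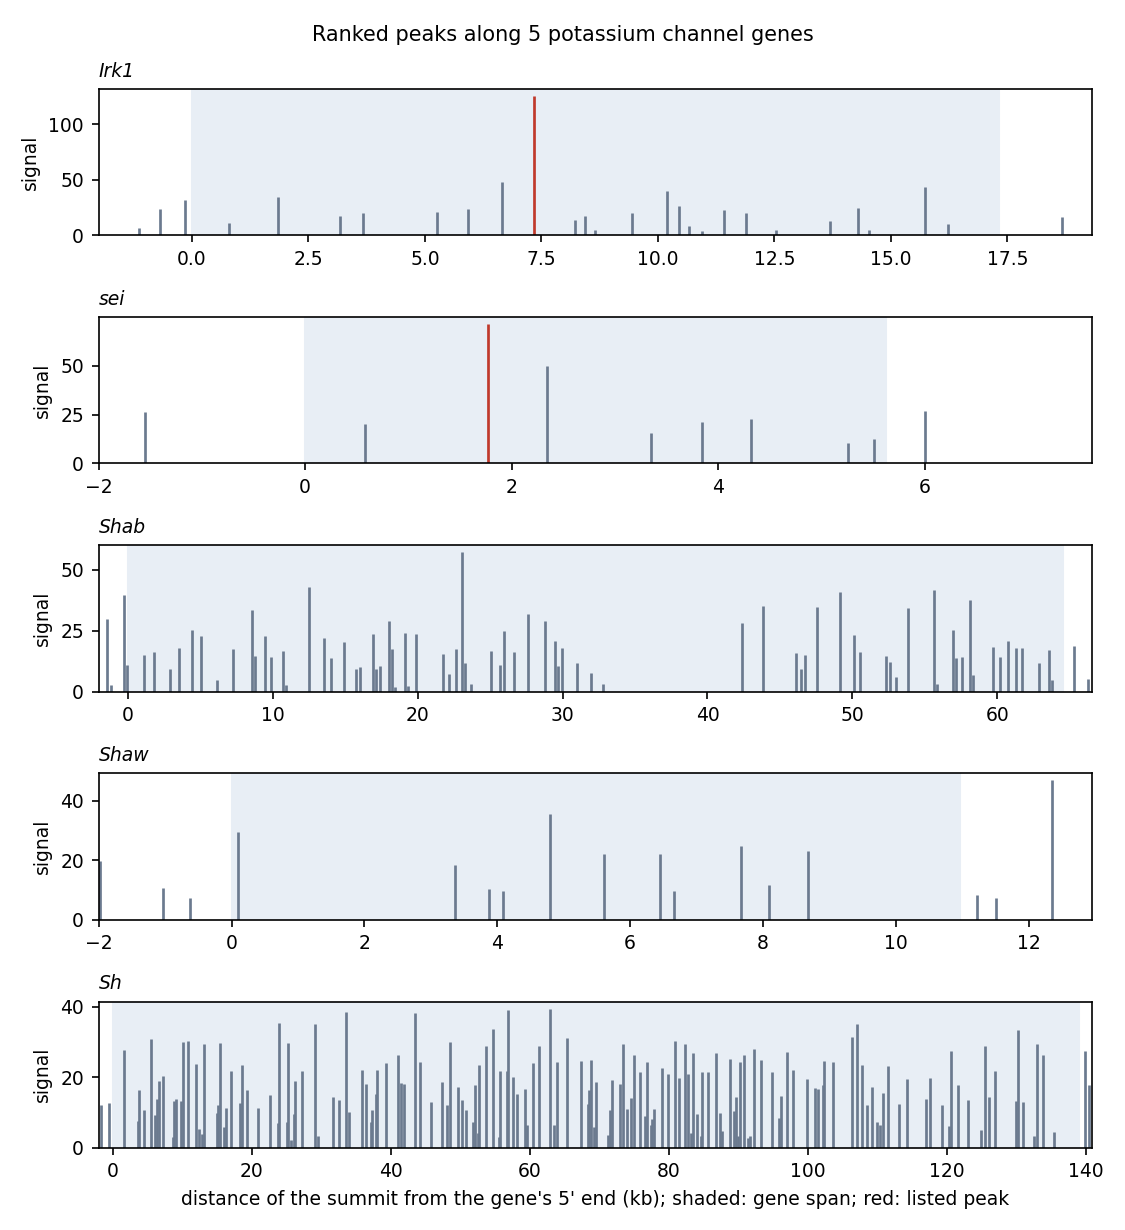
Signal of ranked peaks of both libraries (y axis, linear, from 0) against the distance of the summit from the 5′ end of the gene in kb (x axis) for Irk1, sei, Shab, Shaw and Sh. Shading is the gene span, and the red lines are the listed peaks of Irk1 and sei. The Shab row has an empty stretch between 32.8 and 42.4 kb.

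Ranked peaks were spread over the genes with stretches that held none. The density ran between 0.414 per kb at Shal and 1.32 per kb at Irk2, with a median of 1.16 over the 10 genes and 1.18 over all protein-coding genes. At slo, with 0.490 per kb, no summit lay between 20.5 and 46.8 kb from the 5′ end, a stretch of 26.3 kb. There replicate 1 had 15 ranked peaks of its own and replicate 2 had 5. At Shal the empty stretch was 15.6 kb, in which replicate 1 had 0 ranked peaks and replicate 2 had 12. Such stretches were common in the ranked list of both libraries: on the 5 long arms 1662 gaps of over 5 kb made up 18.5% of the length, while neighbouring summits had a median spacing of 647 bp. A place without a ranked peak in slo or Shal is therefore not a measured low value, and the source of the stretches was not tested.

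Overlap between the ranked lists at these genes was close to that over all ranked peaks. Of the 428 peaks, 299 (69.9%) overlapped a ranked peak of replicate 1, 303 (70.8%) one of replicate 2 and 200 (46.7%) one of each, against 68.4%, 72.2% and 48.0% of all ranked peaks on the arms. The replicate lists are dense, so these shares do not show that the replicates picked the same places. Coverage differed between genes. For Irk1 7 of 28 peaks had a partner in replicate 1 and 25 in replicate 2, and for Shaw 5 and 13 of 17. Over the 200 peaks with both partners the Spearman correlation of signal between replicates was 0.175, against 0.176 over the 66879 such peaks on the arms. These points share libraries and some overlap, so the value is a description. For 3 of the 10 genes the best peaks of both replicates had summits within 300 bp of each other.

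**Figure D4:**
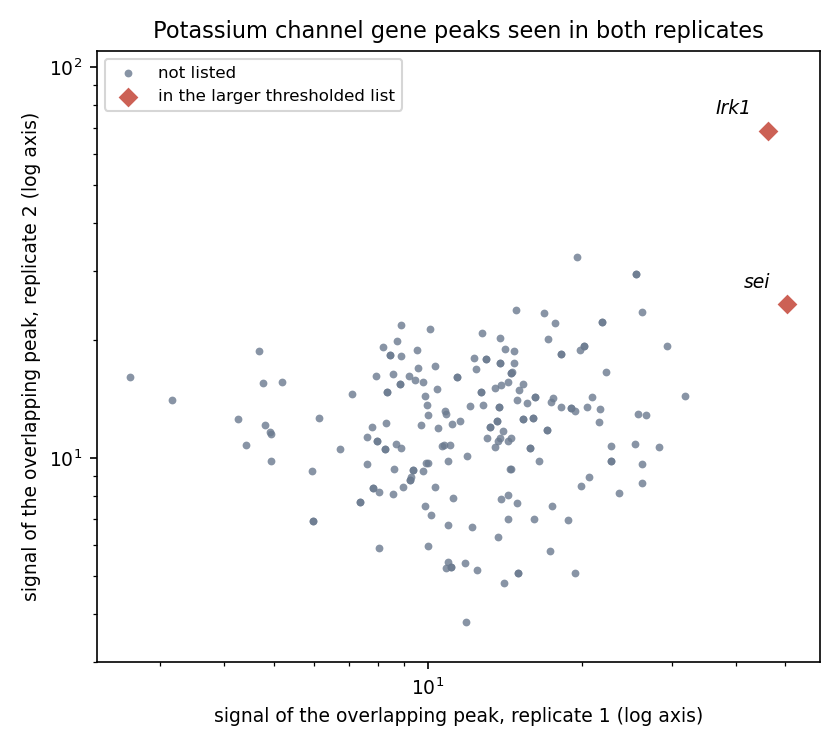
Signal of the overlapping peak in replicate 1 (x axis, log scale) and in replicate 2 (y axis, log scale) for the 200 peaks of the potassium channel genes with a partner in each replicate. The diamonds are the listed peaks of Irk1 (46.3 and 68.8) and sei (50.4 and 24.7). The remaining points form a cloud with little order.

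Counts over the 10 genes were read against the same counts over all genes. A listed peak stood at 2 of the 10 genes (Wilson 95% interval 5.67% to 51.0%) and at 13.1% of all protein-coding genes. The conservative list had a peak at 1 of the 10 and at 9.57% of all genes. The list of replicate 1 gave 2 of 10 against 8.14%, and that of replicate 2 gave 1 of 10 against 8.92%. A peak listed in both replicates and in the larger list stood at 1 of 10 against 5.48%. For the larger list the share over all genes lay inside the interval of the 10. Of the 428 ranked peaks, 2 (0.467%, Wilson 95% interval 0.128 to 1.69) had an IDR of 0.01 or less, and of all 142438 ranked peaks 1.14% did. These intervals cover the counting of peaks and genes, which are not replicates.

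Listed peaks were at a larger share of long genes than of all genes, so the long channel genes were also set beside all genes of 20 kb or more. With both 2 kb extensions, 6 of the 10 spanned 20 kb or more (Sh, Shab, Shal, slo, eag and Irk1). A listed peak stood at 1 of these 6, Irk1, and at 31.6% of the 1306 protein-coding genes of that length. A ranked peak among the top 5000 stood at 4 of the 10 genes (Irk1, sei, Shab and Shaw) and at 31.0% of all genes. Among the long ones it stood at 2 of the 6, Irk1 and Shab, and at 69.6% of long genes. The median best rank was 7962.5 over the 10 genes, 9284 over all protein-coding genes with a ranked peak and 2791 over the long ones. With spans extended by 5 kb in place of 2 kb, the median of the 10 genes was 3030.5. The medians of 9284 and 2791 were taken with 2 kb, so the value with 5 kb cannot be read against them. The counts over the long channel genes lay below those over all genes of 20 kb or more, a description of 6 genes with no test. The sets were not matched for length: without extensions the median span was 30858.5 bp over the 1306 genes and 51809 bp over the 6. Shal and slo are among these 6, and their empty stretches of 15.6 and 26.3 kb are not measured low values.

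**Figure D5:**
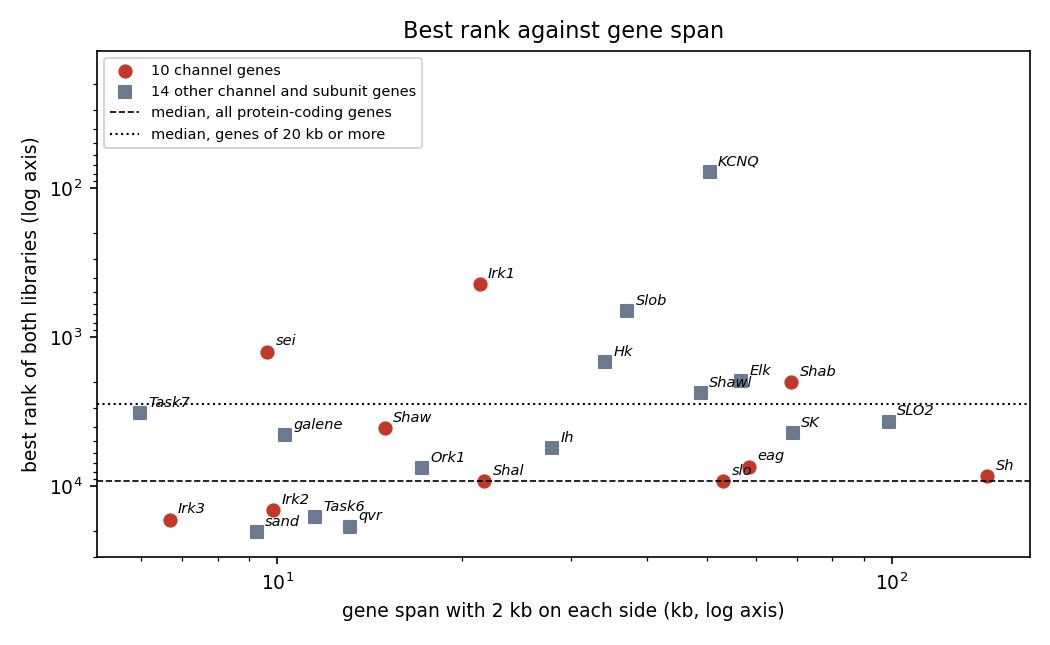
Best rank in the list of both libraries (y axis, log scale, strongest at the top) against the gene span with 2 kb on each side (x axis, kb, log scale). Circles are the 10 channel genes and squares 14 other channel and subunit genes, and lines mark the median of all protein-coding genes (9284) and of those of 20 kb or more (2791). Sh, the longest, lies near the median of all genes, and KCNQ, at rank 78, is the highest point.

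In the median, the best ranks at promoters of the 10 genes were close to those at all annotated starts. All 10 genes had a ranked peak within 500 bp of at least 1 of their own starts, as did 73.0% of all protein-coding genes. By start, 27 of 29 annotated starts had one, against 69.8% of all 19275 starts. The median of the best ranks there was 42399 at the starts of the channel genes and 43008 at all starts. Some neighbouring starts share a peak, that of rank 42399 among them, so the ranks are not separate values. Sh gave 8 and Irk1 7 of the 29 starts. A listed peak was at 1 of the 29 starts, that of sei, and at 5.20% of all starts. Introns of any gene held 267 of the 428 summits (62.4%), against 37.9% of all ranked peaks, and coding sequence 69 (16.1%), against 19.7%. The rule took gene spans with 2 kb on each side, so these shares follow in part from the rule and are no finding.

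Listed peaks just outside the 2 kb limit belonged to neighbouring promoters. The nearest to Irk3 (2L, 18708516 to 18708845, signal 134) lay 2390 bp beyond the gene, 7 bp from the start of Faf2. The nearest to eag (X, 14950857 to 14951186, signal 129) lay 4455 bp from it, 273 bp upstream of the start of pdgy. The nearest to Shal (3L, 19560760 to 19560882, signal 160) lay 6031 bp past its 3′ end at the promoter of lncRNA:CR44676 and was in the list of replicate 2 and not in that of replicate 1. Shal had another 6043 bp beyond its 5′ end, at the promoter of CG14100, which had rank 3 of all ranked peaks with a signal of 793. The peaks by Faf2, pdgy and CG14100 were in the lists of both replicates. A further peak 3164 bp past Irk1 (3R, 23188641 to 23188970, signal 71.5) lay 323 bp downstream of a start of cnc and was in the list of neither replicate. Another 6637 bp before Irk1 (3R, 23161515 to 23161844, signal 68.1), 342 bp upstream of the start of CG13829, was in the list of replicate 2 and not in that of replicate 1. For Sh, Shab, Shaw, slo and Irk2 the nearest listed peak was between 29.7 and 127 kb away.

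Of 14 other genes of potassium and related channels and their partners, 3 had a listed peak (21.4%, against 13.1% of all genes and 31.6% of those of 20 kb or more). Their median span was 27052.5 bp, against 2164.5 bp over all protein-coding genes. KCNQ, a gene of slowly activating channels, had the strongest (2R, 10159630 to 10159805, signal 291, rank 78, −log10 IDR 5), at rank 85 in replicate 1 and 95 in replicate 2 and in all 4 thresholded lists. It lay in an intron of KCNQ and 751 bp upstream of the start of mlt, a gene inside the KCNQ span. Slob, whose product binds the slo channel, had one 187 bp beyond its 3′ end (2L, 7641653 to 7641982, signal 99.6, rank 670). It was in the list of replicate 1 and the conservative list, and not in that of replicate 2. Hk, which encodes the beta subunit of the Shaker channel, had one (X, 10232556 to 10232885, signal 65.1, rank 1478) at the promoter of CG2961 past its 3′ end, in the list of neither replicate.

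The remaining 11 of the 14 were Shawl, Elk, SK, SLO2, Ih, Ork1, sand, Task6, Task7, galene and qvr, with 0 listed peaks. Their best ranks ran between 1965 for Elk and 20262 for sand. The median best rank of the 14 was 4038, against 7962.5 of the 10, 9284 of all protein-coding genes and 2791 of those of 20 kb or more. All 3 listed peaks of the 14 lay away from the genes' own starts, as at Irk1, and 2 of them stood closer to a start of another gene. Among the 24 genes together, the peaks of Irk1 and KCNQ were the ones listed in both replicates.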

How the data were processed

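Peak lists of 2 libraries of Lim3-GFP embryos were analysed. Per the labels and the deposited descriptions, coordinates are dm6, and each library had a ranked and a thresholded list, with 2 further pairs from both libraries. No aligner or peak caller is named, since both were not given in the sources used here. In each list the authors give the signal of a peak on an unstated scale. They also deposited a score scaled from the IDR to at most 1000, which was not used. Ranked lists also carry the −log10 IDR as deposited, at most 5. The descriptions name further input files that were not analysed here. The ranked lists of both libraries have 4 further value columns that could not be matched to a library by name, and these were not used. The 142438 ranked peaks of both libraries, 104680 of replicate 1 and 113860 of replicate 2 were ranked by signal. Read depth is unknown.

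Gene models came from Ensembl release 115 and sequence from RefSeq, both of release 6 of the assembly. Peak ends lay within its chromosome lengths, and all 10 gene spans were the same in the 2 annotations. Peaks outside the 7 arms were left out of gene and sequence work. Overlap means 1 shared base or more, and a replicate's value is that of the overlapping peak with the highest signal. Promoters reach 500 bp to either side of a start. Python 3.11.15, pandas 2.3.3, numpy 2.4.6, scipy 1.17.1 and matplotlib 3.10.9 were used, and the overlap search was checked on simulated peaks. The genes, gene lists and words were chosen with earlier results of these data known, and the span gaps were looked at after the peaks were seen. For each gene the best ranked peak and those in the top 5000 or in a thresholded list are named.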

Additional observations from a re-analysis of the deposited data

How the results depend on the processing

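Of 34 alternatives over 6 results, 21 stayed within 1.5 times the reported count or inside the interval of the median, and 13 did not. A listed peak was at 2 genes, Irk1 and sei, and listed peaks in their spans numbered 2. With spans extended by 5 kb the genes were 4 (eag and Irk3 as well), the peaks 5 and the peaks past the IDR limit 5, and genes with a peak in both replicates' lists were 3 in place of 1. Shares over all protein-coding genes were counted with 2 kb and not with 5 kb. The counts with 5 kb therefore have no share to be read against, and a wider span takes in more peaks at any gene. With the conservative list or the top 50% of listed peaks by signal, 1 gene and 1 peak remained, those of Irk1. Leaving out a replicate gave 1 to 2 genes, 1 to 2 listed peaks and 1 to 2 peaks past the limit, and without replicate 1 the sei peak was lost. Peaks past the limit numbered 4 with an IDR limit of 0.05, Shab adding 2 that overlap each other, and 1 with a limit of 0.001. The limit of 0.05 was thus met by 4 of 428 peaks, beside 2627 of all 139295 ranked peaks on the arms. No share over all ranked peaks was counted at 0.001. The number of ranked peaks ran from 332 to 508 over its alternatives. The median best rank of 7962.5 became 8883 without extension, 3030.5 with 5 kb, a change of over 1.5 times, and 6843 with ranks by IDR. All 3 lie between 1248 and 14395, the second and the ninth of the 10 values, an interval for the median with 97.9% coverage that is too wide to show stability. No paired analysis was possible because there is 1 group. Read depth is unknown, so no limit of detection per gene can be given.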
